A study of Mus musculus with 6 samples.

Results

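The miR-148 and miR-152 family was measured as 3 mature miRNAs, mmu-miR-148a-3p, mmu-miR-148b-3p and mmu-miR-152-3p (written without the species prefix from here on), out of 1881 mouse miRNAs on the arrays. Its members were found by name in the probe annotation, and the family itself was picked for description with earlier results of these data known. C57BL/6 mice had been given Hepa1-6 cells, a hepatoma line of the mouse, in the right flank, and the tumours that grew were collected. The GLE group (3 mice) received a treatment that the labels call GLE and do not spell out, with 0.023 g as the stated daily total for a 10 g animal. The model group (3 mice) carried the same tumours. Its treatment is labelled none, and the protocol gives it 0.2 ml of 0.9% NaCl once a day for 28 days. The age label is 28 days for all 6 mice. No tumour-free tissue and no cultured Hepa1-6 cells are among the samples used here. Every tumour was a separate mouse on its own one-colour array, and the piece of tumour analysed can hold host cells as well as hepatoma cells.

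A miRNA guides a silencing complex to messenger RNAs that pair with its seed, the bases near its 5′ end, so miRNAs with the same seed share many targets. This family is known for targeting the maintenance DNA methyltransferase DNMT1, and miR-148a is abundant in normal liver, where it promotes hepatocyte differentiation. In several cancers the family's genes are themselves silenced by DNA methylation.

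The mature sequences, from RefSeq on GRCm38.p6, are shown because the shared seed defines the family and the few bases outside it are what the arrays have to tell apart. Capitals mark the seed, bases 2 to 8.
miR-148a-3p: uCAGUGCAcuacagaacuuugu
miR-148b-3p: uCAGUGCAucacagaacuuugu
miR-152-3p: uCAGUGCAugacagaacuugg
All 3 carry the seed CAGUGCA, and among 1679 mature mouse miRNAs in the RefSeq table no other has it at bases 2 to 8. Counted from 1 at the 5′ end, miR-148b-3p differs from miR-148a-3p by C9U and U10C. miR-152-3p differs from miR-148a-3p by C9U, U10G and U20G over the 21 positions compared, and from miR-148b-3p by C10G and U20G. Members therefore differed at 2 or 3 positions.

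The genes lie on different chromosomes. Mir148b lies within Copz1 and Mir152 within Copz2, on the strand of those genes, which encode paralogous zeta subunits of the COPI vesicle coat. Mir148a lies within the predicted gene Gm38821, and the next nearest coding gene is Nfe2l3 (RefSeq, GRCm38.p6). The longer probe of each member is listed by the files on mm9 at chr6:51219874-51219892 for miR-148a-3p, chr15:103115620-103115637 for miR-148b-3p and chr11:96711758-96711773 for miR-152-3p.

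Each member had 2 probes, which are shown because their overlap bears on how well the array separates the members. They are DNA complementary to the 3′ part of the miRNA, written 5′ to 3′.
A_54_P1273 for miR-148a-3p: acaaagttctgtagtgcac
A_54_P1274 for miR-148a-3p: acaaagttctgtagtgcact
A_54_P1381 for miR-148b-3p: acaaagttctgtgatgca
A_54_P1382 for miR-148b-3p: acaaagttctgtgatgcac
A_54_P2333 for miR-152-3p: ccaagttctgtcatgc
A_54_P2334 for miR-152-3p: ccaagttctgtcatgca
All 6 matched their own miRNA without a mismatch. The miR-148a-3p and miR-148b-3p probes had 2 mismatches with each other's miRNA, and the miR-152-3p probes had 2 with miR-148b-3p and 3 with miR-148a-3p. Cross-hybridisation between members was not tested.

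Signals came from 12 to 15 spots per probe and array. On the raw intensity scale, the longer miR-148a-3p probe read 172, 442 and 130 in the GLE tumours, in the order of replicates 1, 2 and 3, and 320, 188 and 163 in the model tumours. The longer miR-152-3p probe read 107, 214 and 160 in the GLE tumours and 170, 114 and 99.1 in the model tumours, in the same order. For both members the GLE replicate 2 array and the model replicate 1 array were the brightest before scaling, and these arrays also had the highest overall signal. The 75th percentile used for scaling was 364 intensity units in GLE replicate 2 and 313 in model replicate 1, against 203 to 241 on the other arrays.

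miR-148b-3p was close to the limit of detection. Its longer probe read 18.2, 31.3 and 18.0 in the GLE tumours and 24.0, 15.0 and 17.5 in the model tumours. It was detected (over a share of 0.5 of its spots well above background) on 3 GLE arrays and 2 model arrays, and in model replicate 2 only 6 of its 12 spots used were well above background. The shorter probe, which lacks 1 base of the other, was not well above background in any spot used on any array (mean intensity 1.08 to 4.17). It was left out of the values below.

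**Figure D1:**
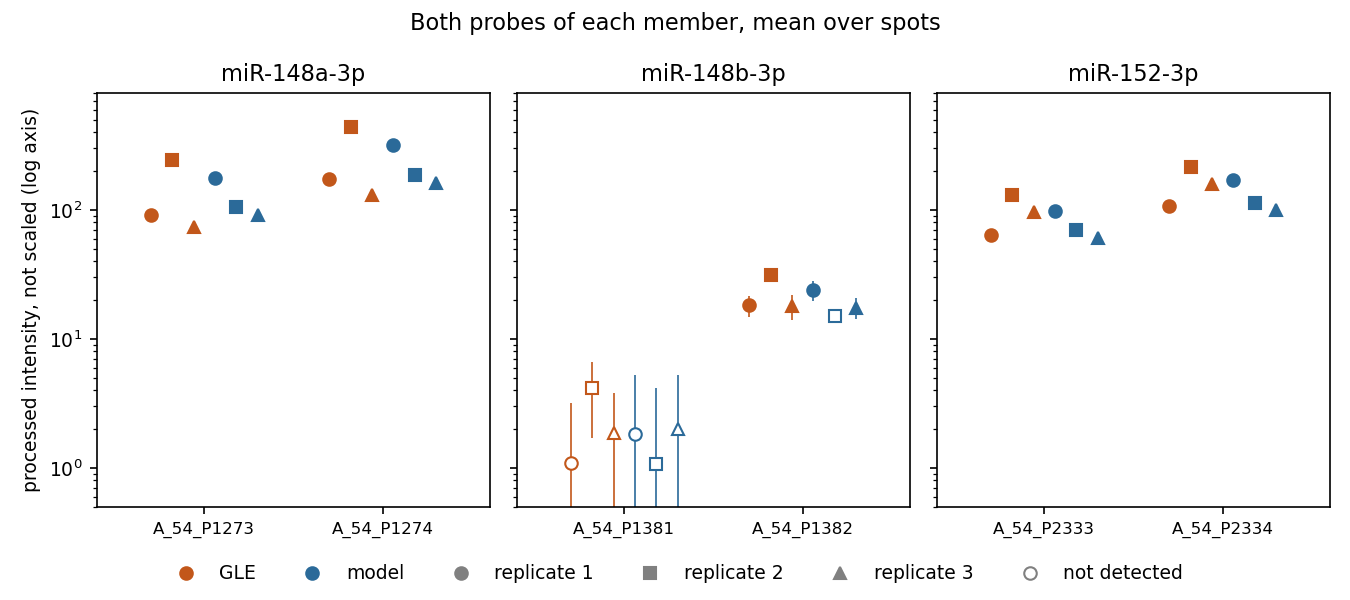
Processed intensity before scaling (log axis) of both probes of each member on the 6 arrays, as the mean over spots with the SD between spots; bars that reach below the axis are cut off there, and open symbols mark arrays where the probe was not detected. The shorter miR-148b-3p probe stays between 1.08 and 4.17 on every array, while the probes of miR-148a-3p and miR-152-3p lie above 60 throughout.

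After scaling, miR-148a-3p stood at −0.69, −0.15 and −1.31 (log2 scaled signal) in the GLE tumours and at −0.40, −0.71 and −0.79 in the model tumours, again in replicate order. Both the highest and the lowest tumour were GLE tumours, so the groups overlapped completely. The GLE mean was −0.72 ± 0.58 (SD, n = 3) and the model mean −0.63 ± 0.21 (SD, n = 3). The difference, GLE minus model, was −0.083 ± 0.30 (SE), a fold of 0.944 with a 95% interval of 0.574 to 1.55 (limma adjusted p = 0.961). Its sign rested on single tumours. The difference was 0.21 without GLE replicate 3, 0.035 without model replicate 1, −0.16 without model replicate 3 and −0.37 without GLE replicate 2, and none of these passed limma's test after adjustment.

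miR-148b-3p, the dimmest member, stood at −3.48, −3.54 and −3.74 in the GLE tumours and at −3.70, −3.95 and −3.59 in the model tumours, in replicate order. The highest and next highest values were GLE tumours and the lowest was a model tumour, with the groups overlapping between. Its means were −3.59 ± 0.14 (SD, n = 3) in GLE and −3.74 ± 0.18 (SD, n = 3) in model tumours, a difference of 0.16 ± 0.18 (SE). That is a fold of 1.12 with a 95% interval of 0.836 to 1.49 (limma adjusted p = 0.935). It entered the test through the GLE group, where its probe was detected on every array. Without model replicate 2, the array where the probe was not detected, the difference was 0.071. Without a detection filter it was 0.079, because the shorter probe, at the floor of −4.25 on every array, is then averaged in.

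miR-152-3p, transcribed with the vesicle-coat gene Copz2, stood at −1.30, −1.12 and −0.95 in the GLE tumours and at −1.27, −1.37 and −1.44 in the model tumours. GLE replicates 2 and 3 lay above every model tumour, while GLE replicate 1 lay just under model replicate 1. The means were −1.13 ± 0.17 (SD, n = 3) and −1.36 ± 0.083 (SD, n = 3). The difference of 0.24 ± 0.17 (SE) corresponds to a fold of 1.18 with a 95% interval of 0.894 to 1.55 (limma adjusted p = 0.935). Its unadjusted limma p of 0.204 was the smallest of the family, and ranked 69 of the 388 miRNAs tested. Without GLE replicate 3 the difference was 0.15.

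**Figure D2:**
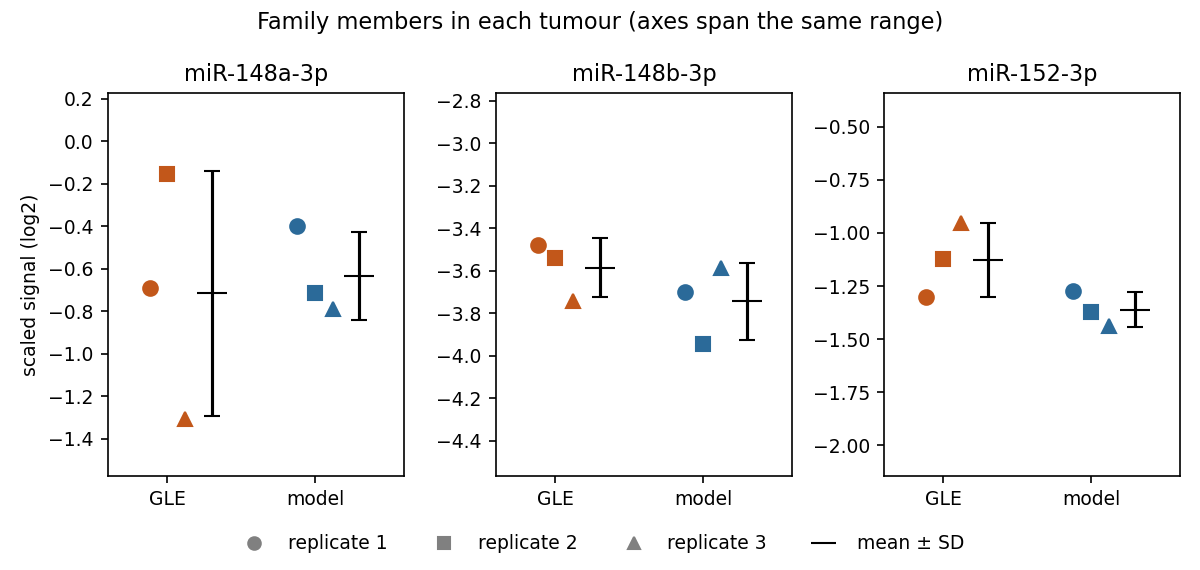
Log2 scaled signal of miR-148a-3p, miR-148b-3p and miR-152-3p in each tumour (symbols by replicate number, orange for GLE and blue for model), with the mean ± SD of 3 tumours beside them. The vertical axes cover the same span: miR-148a-3p ranges from −1.31 to −0.15 within the GLE group, while the other members stay within narrower bands that overlap between groups.

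None of the 3 members passed limma's test (adjusted p under 0.05), and for none did the groups separate. Over all 388 tested miRNAs 0 passed (0%), with 6 at an unadjusted p under 0.05 (1.55%), and in 26 miRNAs (6.7%) the groups did not overlap, with GLE higher in 4.64% and lower in 2.06%. The intervals of miR-148a-3p, miR-148b-3p and miR-152-3p leave room for changes of up to 1.55-fold, 1.49-fold and 1.55-fold upwards, and down to 0.574, 0.836 and 0.894 of the model level. The limits of the comparison are 3 mice per group and the slide: all 6 arrays were on 1 slide in 1 scan, with the GLE arrays in row 1 and the model arrays in row 2 per the file headers, so slide row and group cannot be told apart.

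The 2 probes of miR-148a-3p and those of miR-152-3p gave like differences. Such probes share all but 1 base and read the same RNA, so they are not independent measurements. The miR-148a-3p probes differed between groups by −0.095 and −0.071 (log2), and the miR-152-3p probes by 0.23 and 0.24. Spot-to-spot variation was small beside the spread between tumours for miR-148a-3p, with a coefficient of variation over spots of 1.75% to 8.25% on its 2 probes, whereas its level spanned 2.23-fold over the 6 tumours. miR-152-3p had a coefficient of 4.06% to 8.73% and spanned 1.40-fold. For miR-148b-3p it reached 22.1% on single arrays beside a span of 1.38-fold. The coefficients are between single spots and the spans between means over spots, so they are unlike measures.

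The members differed in how much they varied between tumours of a group. The residual SD of miR-148a-3p was 0.43 (log2), at percentile 74.0 of the tested miRNAs, whose median was 0.28. Those of miR-148b-3p (0.16, percentile 19.1) and miR-152-3p (0.14, percentile 13.1) were below that median. The wide spread of miR-148a-3p lay in the GLE group, with an SD of 0.58 there against 0.21 in the model group. Over all tested miRNAs the median SD was also larger among GLE tumours, at 0.33 against 0.17, and the difference in spread was not tested.

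Whether GLE tumours shifted the balance between members was examined within each array, which removes the scaling between arrays. Only the change of such a difference is read here, since signals of different probes are not levels on a common scale. miR-148a-3p minus miR-152-3p was 0.61, 0.97 and −0.35 in the GLE tumours and 0.87, 0.66 and 0.65 in the model tumours. The model tumours lay close together and GLE replicate 3 stood 1.32 below GLE replicate 2. The change, GLE minus model, was −0.32 (95% interval −1.43 to 0.80), with a two-sided exact permutation p of 0.7 and an adjusted p of 0.8 over the 3 pairs compared. Leaving out 1 GLE tumour moved it from −0.60 (without replicate 2) to 0.063 (without replicate 3).

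miR-148a-3p minus miR-148b-3p was 2.79, 3.39 and 2.44 in the GLE tumours and 3.30, 3.23 and 2.80 in the model tumours. GLE replicates 1 and 3 lay below every model tumour and GLE replicate 2 above them. The change was −0.24 (95% interval −1.13 to 0.64, exact permutation p = 0.6, adjusted p = 0.8). It was −0.50 without GLE replicate 2, −0.40 without model replicate 3, −0.15 without model replicate 1 and −0.024 without GLE replicate 3.

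miR-148b-3p minus miR-152-3p was −2.18, −2.42 and −2.79 in the GLE tumours and −2.43, −2.57 and −2.15 in the model tumours, with the groups interleaved. The change was −0.077 (95% interval −0.68 to 0.52, exact permutation p = 0.8, adjusted p = 0.8). It was −0.22 without GLE replicate 1, −0.17 without model replicate 2, 0.087 without GLE replicate 3 and 0.040 without model replicate 3. With 3 tumours per group the smallest p these permutation tests can give is 0.1. The intervals are wide, so these arrays do not show that the members changed alike.

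**Figure D3:**
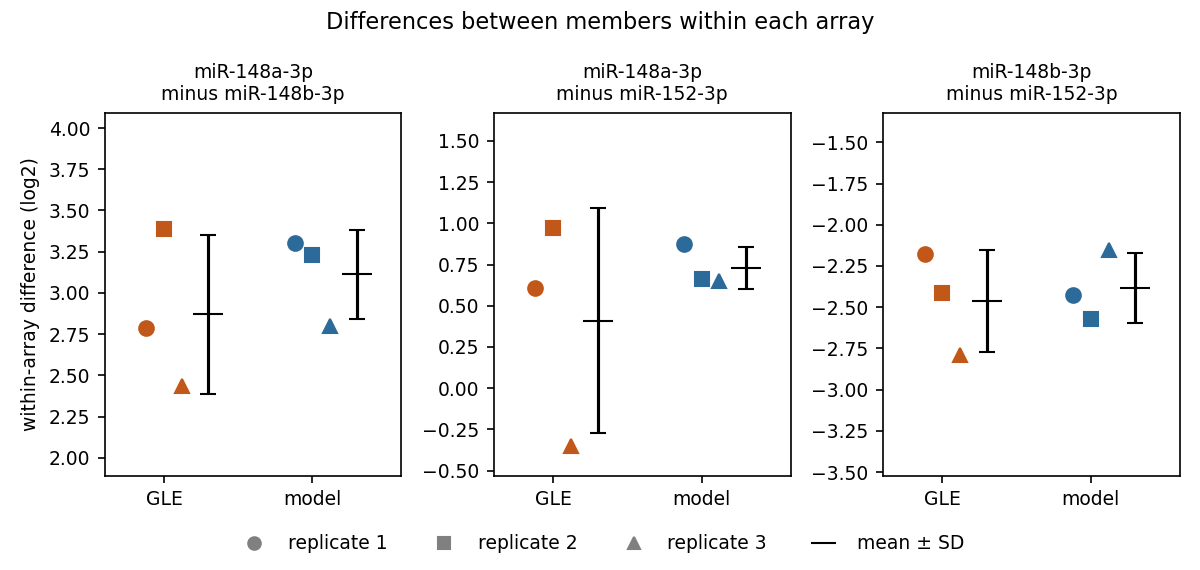
Within-array log2 difference between 2 members in each tumour, by group, with the mean ± SD of 3 tumours. GLE replicate 3 is the lowest point in all 3 panels, at 2.44, −0.35 and −2.79, and the groups overlap in each.

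The opposite arms of the hairpins, miR-148a-5p, miR-148b-5p and miR-152-5p, are usually the strand that is degraded. They are shown because their seeds differ from that of the 3p arms. Capitals again mark bases 2 to 8.
miR-148a-5p: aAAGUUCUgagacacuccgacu
miR-148b-5p: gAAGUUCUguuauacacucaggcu
miR-152-5p: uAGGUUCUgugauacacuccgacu
All 3 were represented on the arrays, by 4, 2 and 2 probes, and were detected on 0 of the 6 arrays, so none was tested. In every tumour the family's signal well above background came from the 3p arms.

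The family's seed letters also stand at bases 1 to 7, 1 base earlier, in 7 mature miRNAs listed by RefSeq, among them the miR-130 and miR-301 family. These were chosen by sequence alone, and 4 of the 7 were tested. In the GLE group miR-130a-3p stood at 2.72, 3.29 and 2.09 in replicate order and miR-301a-3p at −1.83, −1.22 and −2.37. In both, as in miR-148a-3p, GLE replicate 2 was the highest GLE tumour and GLE replicate 3 the lowest. Their differences were −0.28 ± 0.31 and −0.38 ± 0.30 (SE, n = 3 per group, limma adjusted p = 0.935 each). The other tested miRNAs ran the opposite way within the GLE group, with replicate 2 the lowest and replicate 3 the highest. miR-130b-3p stood there at −2.69, −3.26 and −2.49 and miR-721 at −1.40, −1.94 and −1.02. miR-130b-3p differed between groups by 0.43 ± 0.26 and miR-721 by 0.023 ± 0.26, and 0 of the 4 passed. Neither order is particular to these miRNAs. let-7a-5p and miR-31-5p also had GLE replicate 2 highest and replicate 3 lowest within the group, and miR-199a-3p and miR-223-3p had the reverse. Over the tested miRNAs GLE replicates 2 and 3 were the least alike arrays (Pearson r = 0.91). The share of miRNAs with either order was not counted.

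Among the tested miRNAs, those whose log2 values over the 6 arrays were most like a member's are given as a description. The arrays share their scaling, so these correlations move with it. The closest to miR-148a-3p was miR-30e-5p (Pearson r = 0.98), followed by miR-24-1-5p, miR-8107, miR-25-3p of the miR-106b-25 cluster and the growth-restraining let-7a-5p (r = 0.96 to 0.97). For miR-30e-5p the values were −0.57, −0.062 and −0.95 in the GLE tumours and −0.22, −0.41 and −0.48 in the model tumours. As in miR-148a-3p, its highest and lowest values were GLE replicates 2 and 3. Of the other tested miRNAs, 9.09% had an r above 0.9 with miR-148a-3p, against 0.519% with miR-148b-3p and 0% with miR-152-3p. The median r over these miRNAs was −0.40 with miR-148a-3p, 0.11 with miR-148b-3p and 0.014 with miR-152-3p.

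The miRNAs most like miR-148b-3p were miR-107-3p (r = 0.92), miR-338-5p, miR-425-5p, miR-128-3p and miR-24-3p (r = 0.87 to 0.91). Those most like miR-152-3p were miR-322-5p (r = 0.86), miR-5121, miR-1839-5p, miR-340-5p and miR-681 (r = 0.78 to 0.81). The 3 lists had no miRNA in common. Under 3 other scalings, chosen after the data were seen, 1 to 3 of the 5 miRNAs were again among the closest 5 for miR-148a-3p (miR-30e-5p under each), 0 or 1 for miR-148b-3p and 1 or 2 for miR-152-3p (miR-322-5p under each).

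**Figure D4:**
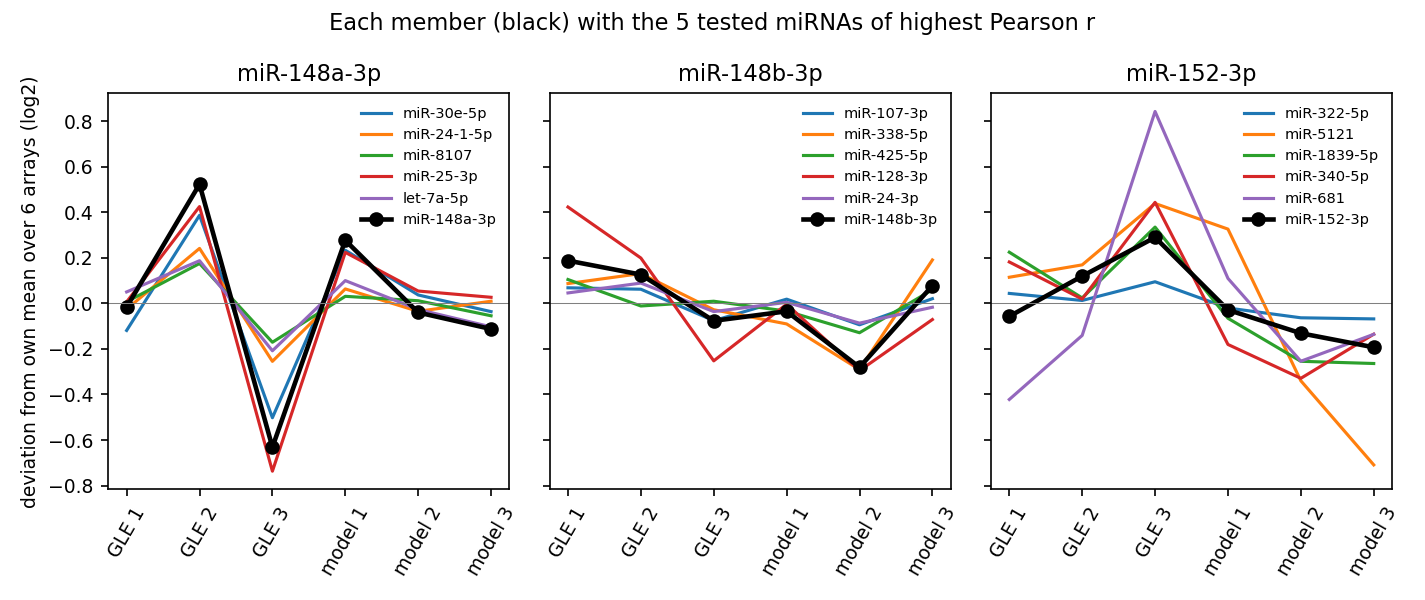
Deviation of each miRNA from its own mean over the 6 arrays (log2), with the family member in black and the 5 tested miRNAs of highest Pearson r in colour; lines join the arrays only to guide the eye. miR-148a-3p and its closest miRNAs peak in GLE replicate 2 and dip in GLE replicate 3, whereas miR-152-3p is highest in GLE replicate 3.

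Other miRNAs known to target DNA methyltransferase mRNAs were described beside the family. The list was chosen with earlier results of these data known, so its counts are a description only. All 8 listed were tested, 7 had a positive difference and 0 passed limma's test, with a median difference of 0.32. Over all 388 tested miRNAs the median difference was 0.0078, and negative differences reached up to percentile 49.0. The groups did not overlap in 2 of the 8, miR-126a-3p and miR-101a-3p, where 6.7% of all tested miRNAs did so. miR-101a-3p, which also targets the Polycomb methyltransferase EZH2, stood at −1.63, −1.81 and −1.52 in the GLE tumours and at −2.00, −2.04 and −2.01 in the model tumours. Its difference was 0.36 ± 0.16 (SE, n = 3 per group), a fold of 1.29 with a 95% interval of 0.991 to 1.67 (limma adjusted p = 0.935).

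miR-126a-3p of endothelial cells differed by 0.49 ± 0.19, with 1.88, 1.52 and 2.00 in GLE and 1.44, 1.20 and 1.29 in model tumours. miR-342-3p of blood cells differed by 1.21 ± 0.51, with 2.17, 0.73 and 2.78 in GLE and 0.43, 0.49 and 1.14 in model tumours. Its GLE replicate 2 lay within the model range. miR-126a-3p and miR-342-3p, with miR-143-3p of smooth muscle (0.27 ± 0.21), also stand in the lists of cell type markers below.

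The miR-29 family, which targets the de novo methyltransferases DNMT3A and DNMT3B, had differences of 0.17 ± 0.16 for miR-29a-3p, 0.067 ± 0.17 for miR-29b-3p and −0.25 ± 0.36 for miR-29c-3p. miR-29c-3p stood at 2.44, 3.06 and 1.62 in the GLE tumours and at 2.73, 2.74 and 2.39 in the model tumours. Within the GLE group replicate 2 was the highest and replicate 3 the lowest, as in miR-148a-3p but also in let-7a-5p and miR-31-5p. miR-185-5p, which targets DNMT1, differed by 0.42 ± 0.21 (limma adjusted p = 0.935).

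**Figure D5:**
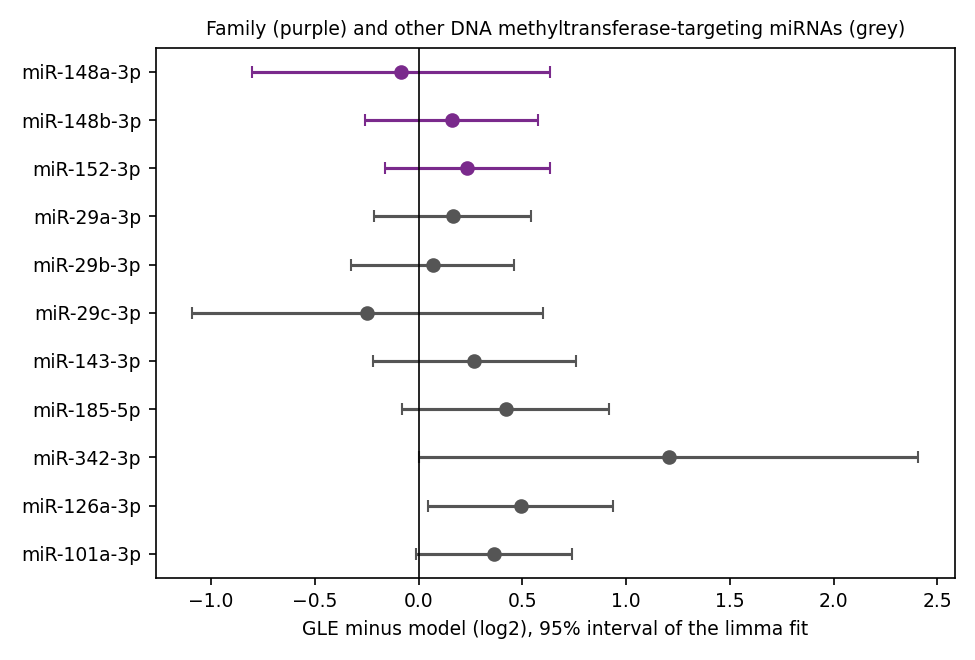
Difference GLE minus model (log2) with its 95% interval from the limma fit over 3 tumours per group, for the 3 family members (purple) and 8 other miRNAs known to target DNA methyltransferases (grey). The members' intervals all include 0. In the grey set, chosen with earlier results of these data known, 7 of 8 points lie above 0 with 0 past the adjusted threshold.

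Markers of cell types varied between the same tumours. Of 5 hepatocyte miRNAs, miR-192-5p and miR-194-5p were tested. miR-122-5p, the defining hepatocyte miRNA, reached detection in 1 tumour of each group, and miR-215-5p and miR-802-5p did so in 0 tumours. The summed scaled signal of the list (log2) was −1.61, 1.56 and −2.32 in the GLE tumours and −0.31, −1.14 and −2.37 in the model tumours. GLE replicate 2 and model replicate 1 were the highest tumours in this list, in the epithelial list below and in miR-148a-3p. Their arrays also had the highest overall signal before scaling. The lowest tumour was model replicate 3 in the hepatocyte list, but GLE replicate 3 in the epithelial list and in miR-148a-3p.

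Of 6 fibroblast and smooth muscle miRNAs, 6 were tested and 5 had a positive difference, and their summed signal was 2.73, 1.85 and 3.55 in the GLE tumours and 1.96, 1.65 and 2.33 in the model tumours. GLE replicate 3 was highest in this list and also in the blood lineage and endothelial lists. It was the highest tumour in miR-152-3p and the lowest in miR-148a-3p. GLE replicate 2 lay above GLE replicate 1 in miR-152-3p but below it in the fibroblast and smooth muscle list. The 5 blood lineage miRNAs were all tested, each with a positive difference, and summed to between 3.47 and 5.01 in GLE and between 3.18 and 3.85 in model tumours. The epithelial list (2 of 5 tested, both negative) ran from 1.53 in GLE replicate 3 to 4.32 in GLE replicate 2, and from 2.83 to 3.99 in model tumours. The 1 tested endothelial miRNA of 2 was positive, as were 2 of the 3 muscle miRNAs, all tested, and 0 of the 2 tested erythrocyte miRNAs, of 3 listed. No marker passed limma's test. In tumour pieces a change in the share of a cell type and a change in its RNA per cell cannot be told apart, and the part of these cell types in the members' values was not tested.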

How the data were processed

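Total RNA of 6 tumours (3 GLE, 3 model) was measured on one-colour Agilent miRNA arrays. The deposited files of the scanner hold, per the file headers, spot intensity from Agilent Feature Extraction 10.7.1.1, with spatial detrending on and the separate background correction and multiplicative detrending off, on a linear scale and not normalised between arrays. The authors also deposited a table of log2 values per miRNA, and how it was made was not given in any source used here. Its log2 scale was inferred: over the tested miRNAs its values followed the log2 probe sums of the same array with a slope of 1.02 to 1.09 and a Spearman correlation of 0.977 to 0.982. Its column medians (−3.20, −3.32 and −3.27 for GLE replicates 1 to 3, −3.32, −3.17 and −3.13 for model replicates 1 to 3) equal each column's lowest value. Each column is a single array, so it carries no direction, and any centring is unknown. It served as an alternative.

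Analysis used R 4.3.3 and limma 3.58.1. Control spots and outlier-flagged spots (1401 to 1883 of 56430 per array) were left out and spots were averaged per probe. A probe was detected on an array when over a share of 0.5 of its spots were well above background. Arrays were divided by the 75th percentile of the 636 probes detected on all 6 arrays, floored at −4.25 (log2) and logged. A miRNA's value is the mean over probes detected on all arrays of a group, which left 388 miRNAs. Detected miRNAs numbered 378 to 458 per array, 0 spots were saturated, and the number of arrays limits the precision. Groups were compared with lmFit and eBayes (two-sided, Benjamini-Hochberg over all 388, threshold 0.05). This fit was tested on simulated data with independent miRNAs and equal spread in both groups. The larger median SD among the GLE tumours was not covered by that simulation. Differences within arrays were compared with exact permutation over 20 relabelings. Intervals of these within-array differences use the pooled spread of both groups.

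The members, their opposite arms, 8 other methyltransferase-targeting miRNAs and the marker lists were chosen with earlier results of these data known. Named besides these are the 5 miRNAs of highest Pearson r with each member and, picked later by sequence alone, those with the seed 1 base earlier. Sequences are RefSeq's (6 of 6 names matched). Alternatives covered scaling, background, floor, detection, outlier spots, probe choice, the deposited table, the variance model, the replicate block and each array left out.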

Additional observations from a re-analysis of the deposited data

How the results depend on the processing

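Over 14 alternatives that kept all 6 arrays, miR-152-3p stayed positive in each (0.11 in the authors' deposited table to 0.86 on the hybridisation spike-ins). Some of these could not move the difference, so they are no check of its sign. The lower floor, both detection choices, the other variance model and the replicate block gave 0.24 for miR-152-3p and −0.083 for miR-148a-3p again. For miR-148b-3p the lower floor, the brightest probe, the variance model and the block gave 0.16 again. miR-148a-3p kept its sign in 13 and was 0.54 when scaled on the hybridisation spike-ins, a scaling that moved the median of all tested miRNAs by 0.59. Relative to that median miR-148a-3p was −0.057, miR-148b-3p 0.14 and miR-152-3p 0.26. miR-148b-3p kept its sign in 12 of 13 and was −0.044 in the authors' deposited table, fitted with limma. Its other values ran from 0.029 with normexp background, 0.067 with quantile normalisation, 0.070 with the percentile over all probes and 0.079 without a detection filter to 0.74 on the hybridisation spike-ins. The value without a detection filter includes the shorter probe, which lay at the floor on every array. miR-148b-3p had no value with probes detected on all 6 arrays only. None of the members passed under any of these (smallest adjusted p = 0.433, without a detection filter). The changes within arrays kept their sign under every such alternative run. Scaling by a single factor per array leaves such a change as it was unless a value meets the floor, so those runs were no check. The replicate block cannot move such a change either.

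With 1 array left out in turn, the difference ran from −0.37 to 0.21 for miR-148a-3p, 0.071 to 0.24 for miR-148b-3p and 0.15 to 0.34 for miR-152-3p. The within-array change ran from −0.50 to −0.024 for miR-148a-3p minus miR-148b-3p, −0.60 to 0.063 for miR-148a-3p minus miR-152-3p and −0.22 to 0.087 for miR-148b-3p minus miR-152-3p. The number of tested miRNAs past the adjusted threshold in limma was 0 under all 20 alternatives, which tested 349 to 1881 miRNAs. At an unadjusted p under 0.05 there were 0 to 109, the highest being 109 of 399 tested without GLE replicate 2.

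The deviations of same-numbered tumours correlated over miRNAs at −0.62 for number 1, −0.18 for number 2 and 0.37 for number 3, and 1 of 6 arrays correlated best with its own number. The values were mixed and no label ties the numbers, so the tumours were not treated as pairs, although each number shares a slide column. With the replicate number as a block the differences were −0.083 ± 0.28, 0.16 ± 0.22 and 0.24 ± 0.22 (SE, limma adjusted p = 0.98 each), and the within-array changes were −0.24, −0.32 and −0.077. No call changed. A slide or scan block was not run, since there was 1 of each. Signal over background limits miR-148b-3p, which rests on 1 probe.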
